A study of Mus musculus with 2 samples.

Results

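The miR-29 family consists in the mouse of 4 microRNA genes at a pair of loci, and its level was read from microRNA sequencing of embryonic hindbrain. Its members were chosen by name as the count entries whose Ensembl identifier maps to Mir29a, Mir29b-1, Mir29b-2 or Mir29c, and all 4 were found among 1973 listed microRNA genes. That rule uses names and no measured value. Embryos of the B6NCrl strain were taken at 16.5 days of development, with males and females pooled and no treatment or mutation on the labels. The 1 group holds 2 biological replicates, each a pool of embryos with its own library. The labels give 37 embryos for the pool of replicate 2 and no number for replicate 1. Since each library is a pool of whole hindbrain, fewer cells that express a microRNA and less of it per cell cannot be told apart.

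A microRNA is cut from the hairpin of a longer primary transcript, and either arm of the hairpin, named 5p or 3p, can yield a mature strand of about the length of the reads. The mature strand guides Argonaute to messenger RNAs that pair with its seed, the short stretch near its 5′ end. In the miR-29 family the 3p arm is the main product. The family is best known for repressing collagens and other extracellular matrix genes, the DNA methyltransferases Dnmt3a and Dnmt3b, and pro-apoptotic BH3-only genes, and for rising in the brain as neurons mature after birth.

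The mature 3p sequences are shown because they decide which reads can be assigned to a single locus. They are those of RefSeq on GRCm38.p6, the assembly that mm10 also names, and the capitals mark the seed, bases 2 to 8 counted from the 5′ end.
miR-29a-3p (Mir29a): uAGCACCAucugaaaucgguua
miR-29c-3p (Mir29c): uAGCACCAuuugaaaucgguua
miR-29b-3p (Mir29b-1 and Mir29b-2): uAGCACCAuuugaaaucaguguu
The seed AGCACCA is common to all of them, and no mature entry of the RefSeq table outside the 4 family genes carries it. The miR-29a-3p and miR-29c-3p forms, both 22 nt long, differ by the single substitution C10U, given as the base of miR-29a-3p, the position and the base of miR-29c-3p. From miR-29c-3p to the 23 nt miR-29b-3p the ungapped differences are G18A, U21G and A22U, so these forms are identical over their first 17 bases. The miR-29b-3p sequence is encoded at both loci without any difference.

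The 5p arms, which are the minor product of each hairpin, separate all 4 genes. Each of the sequences below belongs to 1 locus only in the RefSeq table, with bases 2 to 8 again in capitals.
miR-29a-5p (Mir29a): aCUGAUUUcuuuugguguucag
miR-29b-1-5p (Mir29b-1): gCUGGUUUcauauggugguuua
miR-29c-5p (Mir29c): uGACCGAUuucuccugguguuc
miR-29b-2-5p (Mir29b-2): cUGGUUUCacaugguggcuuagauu
The longest run that the Mir29b-1 and Mir29b-2 hairpins have in common is 25 bases, and it contains the whole miR-29b-3p sequence, here in capitals after 2 further shared bases. It lies on the minus strand at chr6:31063025-31063049 and on the plus strand at chr1:195037089-195037113.
Run common to Mir29b-1 and Mir29b-2: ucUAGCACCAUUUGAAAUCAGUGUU
A read of 22 nt can therefore start at 5 of the 50 possible places in the Mir29b-1 hairpin and at 4 of the 60 in the Mir29b-2 hairpin and still match another hairpin. In the Mir29c hairpin 1 of 67 places was of this kind, and in the Mir29a hairpin 0 of 67 were. These places were searched in the 1005 hairpins of the RefSeq table.

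The loci have the same order of genes. Mir29b-1 and Mir29a lie on the minus strand of chromosome 6 (mm10), at 31063023 to 31063093 and 31062660 to 31062747, with a gap of 275 nt. Mir29b-2 and Mir29c lie on the plus strand of chromosome 1, at 195037040 to 195037120 and 195037547 to 195037634, with a gap of 426 nt. In the direction of transcription the miR-29b hairpin comes before its partner at each locus. In GENCODE M21 both chromosome 1 hairpins lie within an exon of the noncoding gene A330023F24Rik on the same strand, and opposite an exon with untranslated region of the protein-coding gene Cd46. On chromosome 6 the noncoding gene Gm27019 overlaps 2 bases of the Mir29b-1 hairpin, and Mir29a overlaps no other gene. The count tables were made with GENCODE M4, in which Mir29b-1 and Mir29b-2 have an earlier version of their entry (ENSMUSG00000065604.1 and ENSMUSG00000065412.2) than in M21 (ENSMUSG00000065604.2 and ENSMUSG00000065412.3), so the interval counted for the miR-29b hairpins may differ from the one given here. Mir29a (ENSMUSG00000065610.1) and Mir29c (ENSMUSG00000065548.1) have the same version in both.

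**Figure D1:**
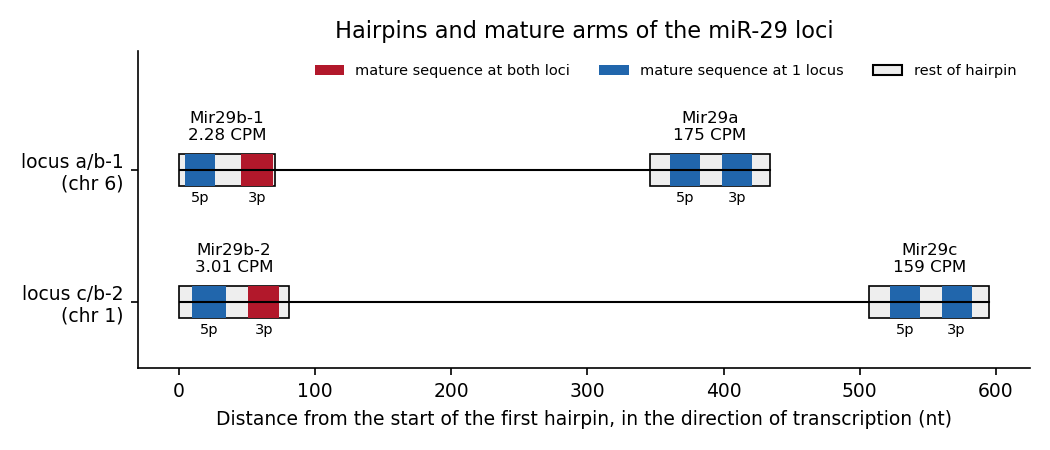
Hairpins of the miR-29 loci drawn to scale by their distance in nt from the start of the first hairpin, with the mature 5p and 3p arms coloured by whether RefSeq has the same mature sequence at both loci or at 1 locus. The 3p arms of Mir29b-1 and Mir29b-2 are the ones held by both loci, and these hairpins have mean levels of 2.28 and 3.01 CPM beside 175 and 159 CPM for Mir29a and Mir29c.

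The 2 libraries held 5097205 and 4460836 sense-strand counts on microRNA genes in replicates 1 and 2, and levels are given as CPM, the counts of a hairpin per 1000000 of these. Reads that fit several places in the genome were left out of the gene counts and appear only as a total, 3802165 reads (34.5% of all reads) in replicate 1 and 3410352 (35.1%) in replicate 2. Of 9 hindbrain and neural microRNAs listed, 8 had an entry and none of these was at 0 in both libraries. Mir10a, which lies in a Hox cluster, was at 63004 and 57854 CPM in replicates 1 and 2. In the same order, Mir10b was at 37989 and 28014 CPM, Mir137 at 9157 and 7199 CPM and Mir9-3 at 485 and 467 CPM. The neuronal Mir124a-1, Mir124a-2 and Mir124a-3, whose mature sequence is common to several loci, had from 1 to 22 counts a library, and Mir9-2 had 4 and 5. The part of multimapping in these low counts was not tested. Intervals are exact binomial 95% intervals and cover counting error only, because amplified reads are not independent molecules where no molecular identifier was used.

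Among reads placed at 1 locus, the family was a small part of the profile, and nearly all of its counts lay on Mir29a and Mir29c. The 4 hairpins together had 1696 and 1541 counts in replicates 1 and 2. That is 0.0339% ± 0.000899 of the sense counts (SD, n = 2), with intervals of 0.0317% to 0.0349% in replicate 1 and 0.0328% to 0.0363% in replicate 2. With the multimapping reads added to the total the share was 0.0193%, and every level in CPM was lower by nearly the same factor (Mir29a at 99.5 CPM). Any reads of the family among the multimapping reads were not added to its counts, so this share can be too low. Within the family Mir29a supplied 51.5% ± 0.778 of the counts and Mir29c 46.9% ± 0.491, while Mir29b-1 and Mir29b-2 supplied 1.57% ± 0.287 together (SD, n = 2 each). The miR-29b-3p sequence is at both loci, and reads that fit several places were not counted. These shares of the counts therefore do not measure how much of the family was miR-29b.

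Mir29a, which makes miR-29a, had 864 counts or 170 CPM in replicate 1 (interval 158 to 181 CPM) and 802 counts or 180 CPM in replicate 2 (168 to 193 CPM). Mir29c, which makes miR-29c, had 802 counts or 157 CPM in replicate 1 (147 to 169 CPM) and 718 counts or 161 CPM in replicate 2 (149 to 173 CPM). These hairpins stood close together, and the lower Mir29a library was above the higher Mir29c library. Mir29b-2 had 17 counts or 3.34 CPM in replicate 1 (1.94 to 5.34 CPM) and 12 counts or 2.69 CPM in replicate 2 (1.39 to 4.70 CPM). Mir29b-1 had 13 counts or 2.55 CPM in replicate 1 (1.36 to 4.36 CPM) and 9 counts or 2.02 CPM in replicate 2 (0.923 to 3.83 CPM). Both miR-29b hairpins lay above the limit of 3 counts, 0.589 and 0.673 CPM in replicates 1 and 2, in each library, but Mir29b-1 alone of the 4 did not reach 10 counts in both. As means, the order was Mir29a at 175 ± 7.27 CPM, Mir29c at 159 ± 2.56 CPM, Mir29b-2 at 3.01 ± 0.456 CPM and Mir29b-1 at 2.28 ± 0.377 CPM (SD, n = 2 each). No read lay on the strand opposite to any of the 4 hairpins in either library.

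**Figure D2:**
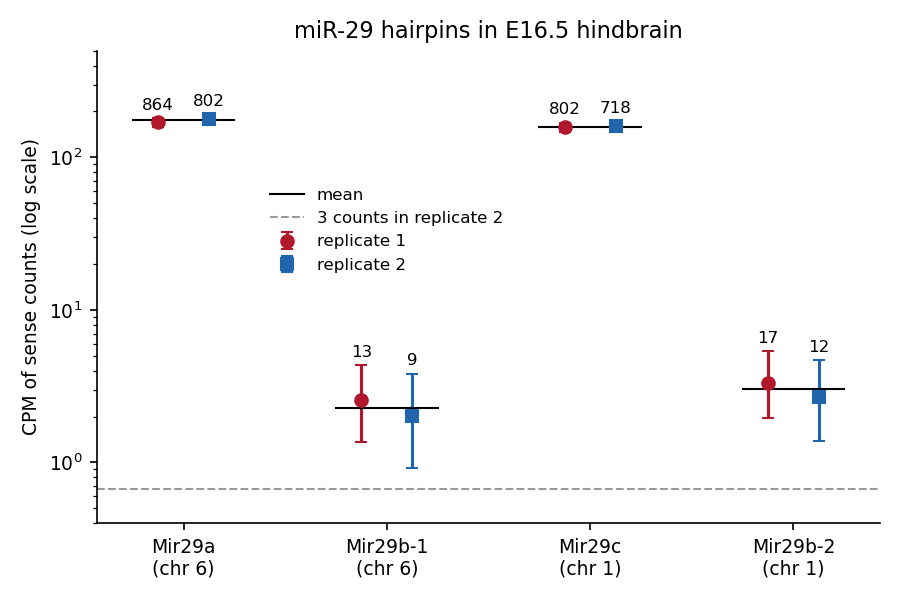
CPM of sense counts on a log axis for each miR-29 hairpin, with points for replicates 1 and 2, their exact binomial 95% intervals, the raw counts above them, the mean as a line and the level of 3 counts in replicate 2 as a dashed line. Mir29a and Mir29c sit between 157 and 180 CPM, and Mir29b-1 and Mir29b-2 between 2.02 and 3.34 CPM with intervals that overlap.

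The comparison of the loci asks whether chromosome 6 or chromosome 1 gives more of the family. Locus a/b-1 had 877 and 811 counts in replicates 1 and 2, and locus c/b-2 had 819 and 730. The log2 ratio of locus a/b-1 over locus c/b-2 was 0.10 in replicate 1 (interval -0.04 to 0.24) and 0.15 in replicate 2 (0.0058 to 0.30), with a mean of 0.13 ± 0.038 (SD, n = 2), a 1.09-fold difference. The mean exceeded 2 SD with the same sign in both libraries, the limit used here to call a ratio larger than the spread between replicates. With 2 libraries that limit is weak, and Mir29b-1 over Mir29b-2 passes it too, at 22 against 29 summed counts. The counting interval of replicate 1 for the locus ratio also includes 0. No p is given, because the exact sign-flip test reaches p = 0.5 at the lowest when there are 2 libraries. With the counts of both libraries summed, 1688 against 1549, the log2 ratio was 0.12 (interval 0.024 to 0.22). Mir29a over Mir29c, whose mature 3p forms differ in the base at position 10 alone, is nearly the same comparison and not a second result. Mir29a held 1666 of the 1688 summed counts of its locus, and Mir29c held 1520 of the 1549 of its own. Their log2 ratio was 0.11 in replicate 1 (interval -0.03 to 0.25) and 0.16 in replicate 2 (0.013 to 0.31), with a mean of 0.13 ± 0.037 (SD, n = 2), a 1.10-fold difference. In reads that could be placed, the loci thus contributed similar amounts, with chromosome 6 slightly ahead in both libraries.

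Within each locus the hairpins were very unequal. Mir29a exceeded Mir29b-1, its neighbour on chromosome 6, by a log2 ratio of 6.05 in replicate 1 (interval 5.27 to 6.97) and 6.48 in replicate 2 (5.55 to 7.61). The mean of 6.27 ± 0.30 (SD, n = 2) is a 77.0-fold difference. Mir29c exceeded Mir29b-2, its neighbour on chromosome 1, by 5.56 in replicate 1 (4.87 to 6.35) and 5.90 in replicate 2 (5.09 to 6.86), with a mean of 5.73 ± 0.24 (SD, n = 2), a 53.1-fold difference. Both ratios were larger than 2 SD, and no interval came near 0. Divided by hairpin length, since the hairpins are of 88, 71, 88 and 81 nt in the order Mir29a, Mir29b-1, Mir29c and Mir29b-2, the ratios were 5.96 and 5.61 on the log2 scale. The miR-29b hairpins are also the ones whose 3p sequence is at both loci, and reads that fit several places were not given to any gene. The part of this in the low miR-29b counts was not tested, because the multimapping reads are deposited only as a total. The counts of Mir29b-1 and Mir29b-2 therefore do not measure the amount of miR-29b.

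Mir29b-1 was not distinguishable from Mir29b-2 at this depth. Its log2 ratio over Mir29b-2 was -0.39 in replicate 1 (interval -1.55 to 0.74) and -0.42 in replicate 2 (-1.84 to 0.96). The mean of -0.40 ± 0.020 (SD, n = 2) exceeded 2 SD, but this SD is far smaller than the counting error of 9 to 17 counts. Summed over both libraries the counts were 22 and 29, with a log2 ratio of -0.40 and an interval of -1.27 to 0.45.

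Other clusters show how unequal neighbouring hairpins were in the same libraries. Of 24 other listed pairs of hairpins that lie in 1 cluster, 22 had counts for both hairpins, and Mir195a with Mir497 and Mir425 with Mir191 were not analysed here. The absolute mean log2 ratio of the 22 pairs ranged from 0.31 to 9.40 with a median of 2.93. Only 3 of them were more unequal than Mir29a and Mir29b-1, and 5 were more unequal than Mir29c and Mir29b-2. The most unequal were Mir181a-1 over Mir181b-1 at 9.40 and Mir30e over Mir30c-1 at 8.14. The least unequal were Mir183 over Mir182, of the sensory miR-183 cluster, at 0.31 and Mir451a over Mir144, an erythroid pair, at 0.55. The miR-29 pairs thus stood in the unequal part of this list, but not outside its range. This is a description of these libraries, with no test.

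**Figure D3:**
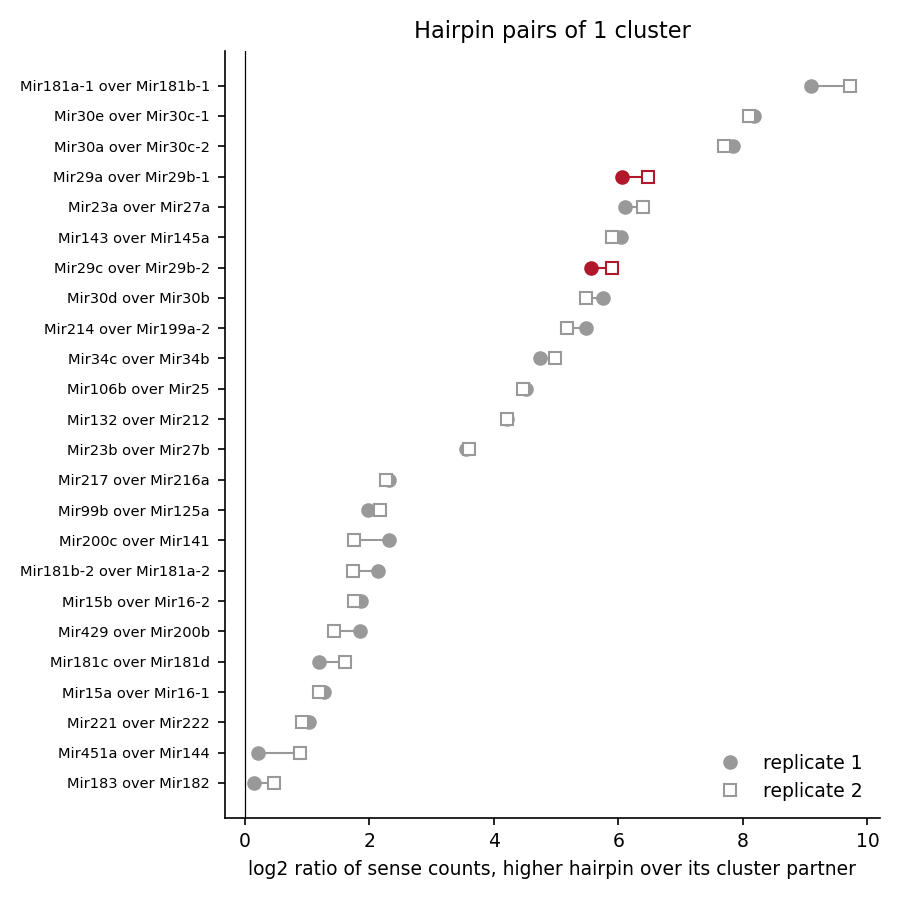
Log2 ratio of sense counts of the higher hairpin over its partner for 24 cluster pairs, with a filled circle for replicate 1, an open square for replicate 2 and the miR-29 pairs in red. Mir29a over Mir29b-1 lies at 6.05 and 6.48 and Mir29c over Mir29b-2 at 5.56 and 5.90, below 3 and 5 of the other 22 pairs by mean ratio.

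Among all 737 hairpins with a sense count in either library, Mir29a ranked 177, Mir29c 186, Mir29b-2 373 and Mir29b-1 394 by mean CPM. The median of these 737 hairpins was 3.18 CPM, and that of the 385 with at least 10 counts in both libraries was 150 CPM. Mir29a and Mir29c were thus close to the middle of the well counted hairpins, and the miR-29b hairpins just below the middle of all hairpins with a count. Next to Mir29a in level were Mir221 at 179 ± 3.31 CPM and Mir542 at 178 ± 31.8 CPM above it and Mir302b at 174 ± 38.5 CPM and Mir135a-2 at 173 ± 26.6 CPM below it (SD, n = 2 each). The range of each of these 4 neighbours overlapped that of Mir29a. Next to Mir29c were Mir181a-2 at 166 ± 6.40 CPM and Mir331 at 165 ± 3.15 CPM above it and Mir669c at 157 ± 18.5 CPM and Mir32 at 157 ± 15.1 CPM below it (SD, n = 2 each). The libraries of Mir181a-2 and Mir331 lay above those of Mir29c without overlap, by less than 10 CPM between the means, and those of Mir669c and Mir32 overlapped them. The neighbours of Mir29b-2 were Mir3474, Mir3094, Mir3070a and Mir6979, and those of Mir29b-1 were Mir511, Mir7059, Mir5101 and Mir1231, with 5 to 18 counts a library and overlapping ranges throughout. With 2 libraries, nearness in level is the likeness that could be measured.

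**Figure D4:**
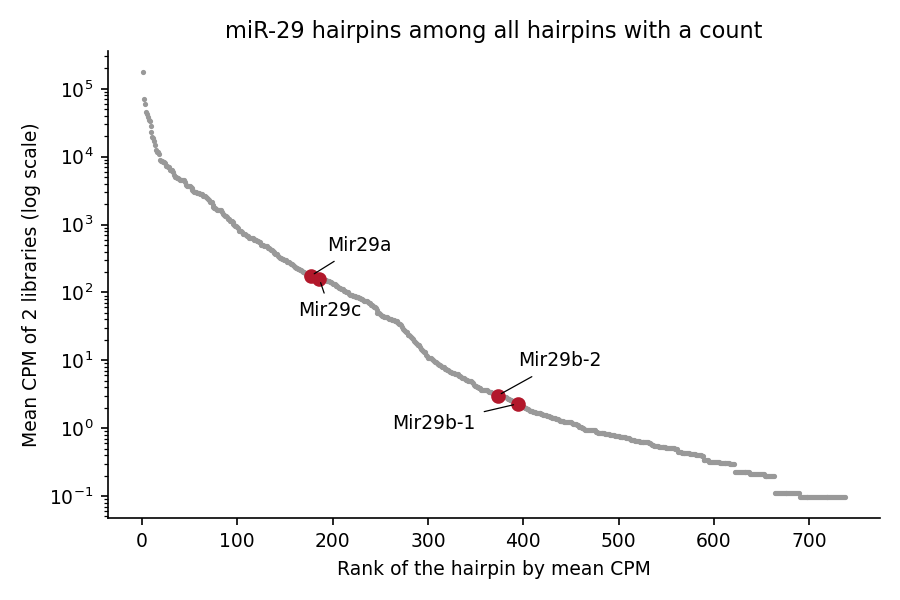
Mean CPM of 2 libraries on a log axis against the rank of each of the 737 hairpins with a count, with the miR-29 hairpins in red. Mir29a and Mir29c lie at ranks 177 and 186, and Mir29b-2 and Mir29b-1 at ranks 373 and 394.

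Other families of several hairpins held far more counts. The miR-29 share of 0.0339% ± 0.000899 stood against 14.2% ± 0.407 for the 10 counted hairpins of the let-7 family, which rises with differentiation (SD, n = 2 each). The miR-29 family was lower by a log2 ratio of -8.71 ± 0.0031 (SD, n = 2), a 419-fold difference. Against the 6 hairpins of the miR-30 family, at 3.33% ± 0.333 and led by Mir30e at 16922 ± 2024 CPM, the log2 ratio was -6.61 ± 0.18, a 97.9-fold difference (SD, n = 2). The 3 hairpins of the miR-26 family were at 1.50% ± 0.161, with nearly all of their placed reads on Mir26b at 14959 ± 1613 CPM (SD, n = 2 each). Against this family the log2 ratio was -5.46 ± 0.19, a 44.1-fold difference (SD, n = 2). All of these ratios were larger than 2 SD. Without hairpins that share a mature sequence with another locus, they were -8.69, -6.63 and -5.48 on the log2 scale. The shares and ratios of all families rest on reads placed at 1 locus, and the part of multimapping in them was not tested. Mirlet7g led the let-7 family at 71186 ± 3958 CPM (SD, n = 2).

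Lists of microRNAs known from mature brain and from other cell types gave further reference levels, with Mir29a as the mark. Of 14 microRNAs known to be high in mature neurons or glia, all had at least 10 counts in both libraries and 10 had a higher mean CPM than Mir29a. Their leading members were Mir26b, Mir128-1 at 2666 ± 250 CPM, Mir125b-2 at 2156 ± 22.7 CPM and Mir219a-2, of the oligodendrocyte lineage, at 1648 ± 261 CPM (SD, n = 2 each). Fibroblasts are a known site of miR-29, and of the 5 mesenchymal and fibroblast microRNAs listed, Mir21a at 3186 ± 241 CPM and Mir214 at 277 ± 129 CPM were above Mir29a. Mir199b at 92.6 ± 12.1 CPM, Mir199a-2 at 6.70 ± 2.18 CPM and Mir199a-1, with 0 and 1 counts, were below it. Mir199a-2 shares a mature sequence with another locus. The part of multimapping in the values of Mir199b, Mir199a-2 and Mir199a-1 was not tested. The summed CPM of this list was 3834 in replicate 1 and 3290 in replicate 2. Of the vascular list, Mir126a and Mir143 were above Mir29a and Mir145a, at 114 ± 8.82 CPM, was below it. The erythroid Mir451a, Mir144 and Mir486 were all below, between 33.0 and 105 CPM. Of the skeletal muscle list, Mir133a-1, Mir133a-2 and Mir1a-1 were at 0 counts in both libraries, which allows up to 0.589 and 0.673 CPM of reads placed at 1 locus. The mature miR-133a and miR-1a are each encoded at several loci, and the part of multimapping in these zeros was not tested. Mir133b had 26 and 3 counts in replicates 1 and 2. Mir206 of the same list had 370 CPM in replicate 1 and 24.2 CPM in replicate 2.

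None of the miR-29 hairpins passed the test for a difference between the libraries. For each hairpin an exact binomial test set the counts of replicate 1 and replicate 2 against TMM-scaled totals, a test of counting noise that compares these libraries and not conditions. After Benjamini-Hochberg adjustment at 0.05 it called 186 of the 401 hairpins tested, or 46.4% (24.4% higher in replicate 1 and 21.9% higher in replicate 2), and 0 of the 4 miR-29 hairpins. At an unadjusted p under 0.05 it called 1 of them, Mir29a. The log2 ratio of replicate 1 over replicate 2 was -0.15 for Mir29a (exact binomial interval -0.29 to -0.0093, adjusted p = 0.0715, edgeR TMM totals) and -0.10 for Mir29c (interval -0.24 to 0.05). It was 0.27 for Mir29b-1 (interval -1.07 to 1.68) and 0.25 for Mir29b-2 (interval -0.91 to 1.44), so for each of these a level 2-fold higher in replicate 1 would lie within the interval. The exact test of edgeR at an assumed biological coefficient of variation of 0.1 called 7 of 401 hairpins, or 1.75%, and 0 of the 4. The median absolute log2 ratio was 0.20 over the 4 hairpins and 0.18 over all 401.

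Mir29a and Mir29c, which had enough counts to show a small difference, varied less between the libraries than the median hairpin of like depth. With plain totals the SD of the replicates was 4.16% of the mean for Mir29a and 1.61% for Mir29c. Over the 88 hairpins within a factor of 2 of Mir29c and Mir29a in summed counts, the median was 10.2%, and 59.1% of them were called by the exact binomial test. With TMM-scaled totals the values were 7.33% for Mir29a, 4.78% for Mir29c and 9.91% for the median of the 88, and with DESeq2 size factors 6.54%, 3.99% and 10.1%. With plain totals the SD was 16.5% of the mean for Mir29b-1 and 15.1% for Mir29b-2, where counting error alone is large. The biological coefficient of variation over all tested hairpins was 16.2%. The marker lists also held hairpins called by the exact binomial test, beside 24.4% of all tested hairpins called higher in replicate 1 and 21.9% called higher in replicate 2. Of the hindbrain and neural list 3 of 5 tested hairpins were higher in replicate 1, and of the brain maturation list 5 of 14 were higher in replicate 1 and 4 in replicate 2. Higher in replicate 1 were also 2 of 4 mesenchymal and 2 of 2 muscle hairpins, and 3 of 3 vascular hairpins were higher in replicate 2. Of 3 erythroid hairpins 1 was higher in each library. Their part in the values of the miR-29 hairpins was not tested.

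**Figure D5:**
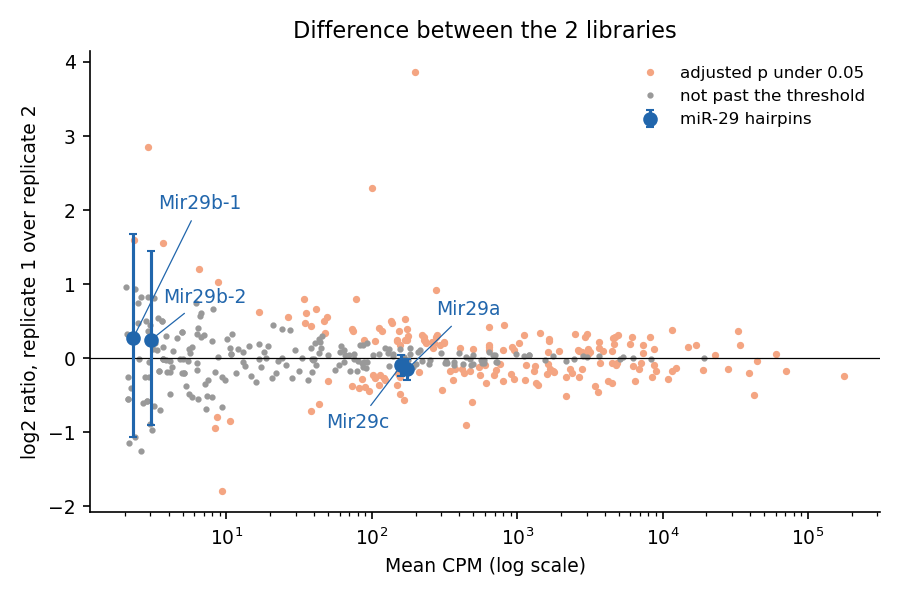
Log2 ratio of replicate 1 over replicate 2 after TMM scaling against mean CPM (log axis) for the 401 hairpins tested, coloured by the adjusted p of the exact binomial test, with the miR-29 hairpins in blue and their exact binomial 95% intervals. Mir29a at -0.15 and Mir29c at -0.10 lie close to 0, and the intervals of Mir29b-1 and Mir29b-2 span more than 2 log2 units.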

How the data were processed

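MicroRNA reads of 2 hindbrain libraries were counted by the authors on mm10 with GENCODE M4, per the deposited text files. For the aligner and the counting program the sources used here give no name. The deposited values are raw counts per gene on either strand and on each strand, and the sense column, which held 97.6% of assigned reads in each library, was used. Identifiers without version were matched to GENCODE M21, for 1894 of 1973 genes. The summary lines, which name no gene, stayed out of the totals: replicate 1 had 34.5% multimapping and 15.5% unmapped reads, and replicate 2 had 35.1% and 15.2%. Sequences are from RefSeq.

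From the counts, CPM, shares and log2 ratios were computed, each as the mean ± SD of 2 libraries with exact binomial 95% intervals per library. A ratio was called larger than the spread when its sign did not change between the libraries and its mean exceeded 2 SD. With 2 libraries this limit is weak and serves as a description only. Libraries were compared by an exact two-sided binomial test with TMM totals, for genes that reached 20 counts over both libraries. The test was run on simulated counts with counting noise only, which cannot show how it behaves with spread between replicates. The biological coefficient of variation is edgeR's common dispersion without a contrast. Alternatives were the unstranded column, TMM and DESeq2 scaling, other totals, no minimum count, 0.5 added counts, division by length, single replicates and edgeR's exact test. Sums over both libraries and the split of cluster pairs by shared mature sequence were added after the data were seen. Named beside the members are the genes next to them in level, family leaders, marker lists and cluster pairs. Of the marker lists all counted members are named, except for the brain maturation list. Of that list the 4 leading ones by level and those below Mir29a are named. The family and the lists were picked for study with earlier results of these data known, and the 4 members were then found by name. The tools were edgeR 4.0.16 and DESeq2 1.42.0 in R 4.3.3, and scipy 1.17.1 and pandas 2.3.3 in Python 3.11.15.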

Additional observations from a re-analysis of the deposited data

How the results depend on the processing

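The ratios between hairpins, between the loci and between families kept their sign and their side of the limit where these alternatives applied. They were the unstranded column, added counts, division by length and omission of shared hairpins. No read lay on the strand opposite to the 4 hairpins, so the unstranded column could not change the ratios among them. Omission of shared hairpins removed only 1.57% of the miR-29 counts, so on that side it could change little. With counts summed over both libraries, an alternative chosen after the data were seen, Mir29b-1 over Mir29b-2 no longer passed, at a log2 ratio of -0.40 (interval -1.27 to 0.45), and division by length gave -0.21 for that pair. Single replicates kept every sign, which the limit already requires of a ratio that passes it. Levels depend on the total. Without the most abundant gene in the total the family share was 0.0412%, and Mir29a, Mir29c, Mir29b-2 and Mir29b-1 were at 212, 193, 3.65 and 2.77 CPM. With multimapping reads added to the total, but to no hairpin, the share was 0.0193%, and the levels were 99.5, 90.7, 1.72 and 1.30 CPM. With the unstranded column Mir29c was at 155 CPM, a change beyond its small SD. The number of hairpins that differed between the libraries was 186 by the exact binomial test and 7 by edgeR's exact test at an assumed coefficient of 0.1, which allows for more than counting noise. Both of these tests covered 401 hairpins. Under the other settings the number was 179 to 195. The extremes were 179 of 737 tested hairpins with no minimum above 1 and 195 of 413 with the unstranded column. None of the 4 members passed under any setting. The adjusted p of Mir29a was 0.0715 in the exact binomial test with TMM totals and 0.0857 to 0.975 under its alternatives (exact binomial test or edgeR). Depth limits Mir29b-1 and Mir29b-2 most, with 9 to 17 counts a library. No paired analysis was possible because there is 1 group.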

Other observations

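Among the cluster pairs, those in which 1 hairpin shares a mature sequence with another locus were looked at after the values were seen. Apart from the miR-29 pairs there were 5 such pairs, and the hairpin with the shared sequence was the lower one in 5 of 5. They were Mir30e over Mir30c-1 (log2 ratio 8.14), Mir30a over Mir30c-2 (7.77), Mir214 over Mir199a-2 (5.33), Mir15b over Mir16-2 (1.81) and Mir15a over Mir16-1 (1.23). The median absolute log2 ratio of these 5 pairs was 5.33. That of 15 pairs in which both or neither hairpin shares a mature sequence was 2.07. Those 15 include the most unequal pair of all, Mir181a-1 over Mir181b-1 at 9.40, in which both hairpins share one. The other 2 of the 22 pairs, left out of this split because their sequences were not analysed here, were also very unequal, with Mir143 over Mir145a at 5.97 and Mir30d over Mir30b at 5.61. The miR-29 pairs, at 6.27 and 5.73, have the same arrangement. Mir23a over Mir27a, a pair in which neither hairpin shares a mature sequence, was at 6.25. Reads that fit several places were left out of the counts, which by itself can lower a hairpin with a shared sequence. The direction in these pairs was thus favoured in advance by the counting. The part of multimapping in the miR-29b counts was not tested.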
